A study of Mus musculus with 4 samples.

Results

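The replication-dependent histone genes are the subject here. They were chosen by name, as the protein-coding genes of GENCODE M21 whose symbols begin with Hist1h, Hist2h, Hist3h or Hist4h, and 67 of 21938 protein-coding genes on the nuclear chromosomes met this rule. By the histone they encode, 6 members are H1 genes, 18 are H2A, 18 are H2B, 12 are H3 and 13 are H4 genes. On mm10 they fall into 4 clusters and 1 single gene when neighbouring starts up to 500 kb apart are joined. The first Hist1 block lies at chr13:21715763-22043676 and holds 23 members. The second Hist1 block lies at chr13:23531050-23934851 and holds 31. The Hist2 cluster at chr3:96219865-96270132 holds 10 members, the Hist3 cluster at chr11:58948920-58956830 holds Hist3h2ba and Hist3h2a, and Hist4h4 lies alone at chr6:136801553-136804415.

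These genes make the bulk of the histones that package newly replicated DNA, and they are transcribed in S phase into mRNAs that end in a stem-loop instead of a poly(A) tail. CTCF is a zinc finger protein that binds an oriented DNA motif, and RAD21 is a subunit of the cohesin ring. Cohesin extrudes chromatin loops and is stopped by CTCF, so RAD21 signal gathers at many CTCF sites. The Hist1 locus of mammals also holds one of the largest groups of tRNA genes, which are transcribed by RNA polymerase III.

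CTCF and RAD21 were mapped by ChIPmentation, a form of ChIP in which the sequencing adapters are inserted into the precipitated chromatin by a transposase. Both used whole limbs at E12.5 from B6CBAF1 embryos that carry the TgN(38-40) transgene on 1 allele and the deletion del(CS38-40) on both, written TgN(38-40)/Wt; del(CS38-40)-/-, with 4 whole limbs as the material. The deposited lists number 2 replicates per antibody. RAD21 of wild-type E12.5 limbs comes from 1 ChIP-seq library of an earlier study, and the inputs of the transgenic and of the CS38-40 wild-type limbs have no peak list. No member lies on chromosome 2 or 10, which carry the deletion and the insertion, and no contrast between genotypes was made because the only wild-type list was made by another method. The mm10 lists hold 23829 and 26264 CTCF peaks in replicates 1 and 2, 4102 and 14787 RAD21 peaks in replicates 1 and 2, and 20874 wild-type RAD21 peaks. RAD21 replicate 1 stands apart by its length, so each RAD21 result is given per list. Read counts are not in these lists and depth is unknown, and a site with no peak may still be bound below the calling threshold. A fold is the enrichment at the summit over the local expectation and was compared only within a list, by its rank.

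The sequences at the sites described below are shown first, because the CTCF sites of the histone clusters differ in their motifs and in RAD21. Each is read 5′ to 3′ from mm10 (GRCm38), with the 19-base match to the CTCF motif in capitals and 5 bases on either side in lower case. The motif model was learned from the CTCF peaks of other chromosomes and is written on the strand where its core reads AGGGGGCGC.
Hist1h2bl flank, chr13:21714904-21714932, plus strand: gtttgTGGCCACAAGATGGCAGAAaagag
Hist1h4j upstream site, chr13:21734272-21734300, minus strand: ctggaTGGCCACTAGAGGGCACTCttgac
Site among the tRNA genes of the first block, chr13:21928736-21928764, plus strand: cacaaAGGCCACAAGACGGCGACAgatca
Second block, left flank, chr13:23524807-23524835, minus strand: caggcCAGCCACATGAGGGCGCCAgagag
Hist1h2be intron, chr13:23598166-23598194, minus strand: tttggAAACCACTAGGTGGCGCTGcgagg
Hist1h4c, past its 3′ end, chr13:23697554-23697582, minus strand: gccatCTGCCACAAGAGGGCGGCGttatt
Site near Hist1h4c with strong RAD21, chr13:23701372-23701400, plus strand: gaagtAAGCCACCAGGTGTCACCCttctt
Site near Hist1h1c, chr13:23732659-23732687, minus strand: cttagCAGACACTAGATGGCAGGCcaaaa
Site past Hist1h1a, chr13:23792668-23792696, plus strand: catgcTGACCAGTAGGTGGCAGTCttgta
Next site past Hist1h1a, chr13:23833183-23833211, plus strand: ctcctTCAACATTAGAGGGCGCTAtagga
Hist2 cluster, right flank, chr3:96278512-96278540, plus strand: acagaTGACCACGAGATGGCGCCAgcgag
Most H2A and H2B members share a start region with a divergent partner and had no peak there. The bases between the starts of Hist1h2ae and Hist1h2bg are shown as an example, with 3 promoter words in capitals on either strand, which are spelled out with the promoters at the end.
Between Hist1h2ae and Hist1h2bg, chr13:23571221-23571395, plus strand: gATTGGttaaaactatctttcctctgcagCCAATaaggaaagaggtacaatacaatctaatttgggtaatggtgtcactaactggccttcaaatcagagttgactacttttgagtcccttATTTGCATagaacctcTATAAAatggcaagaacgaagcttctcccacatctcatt

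Few histone gene starts carried a peak. Within 1000 bp of the start, a CTCF peak lay at 4 of 67 members in replicate 1 (5.97%), beside 10.1% of all protein-coding starts. In replicate 2 it lay at 5 of 67 (7.46%), beside 10.9%. The members were Hist1h4j, Hist1h3e, Hist1h4c and Hist2h4 in both replicates, and Hist1h2bj in replicate 2. Over either replicate this makes 5 of 67 members, beside 2634 of 21938 starts in all. RAD21 replicate 1 had a peak at 0 of 67 members (1.06% of all starts) and replicate 2 at 1 (4.79%), so either replicate gave 1 of 67, beside 4.95%. The wild-type RAD21 list also had 1 (9.58% of all starts). Hist1h4j was the member both times. RAD21 away from any CTCF peak was at 0 of 67 starts in each list, beside 0.150% of all starts for replicate 1, 0.852% for replicate 2, 0.985% for either and 3.87% for wild-type RAD21. With 67 members, a share of about 1% is less than 1 gene, so the zeros of the transgenic lists lie near the background. The CTCF counts are small as well, and divergent partners share much of their windows. The lower CTCF shares are thus not read as a trait of the histone genes, and no test was run.

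**Figure D1:**
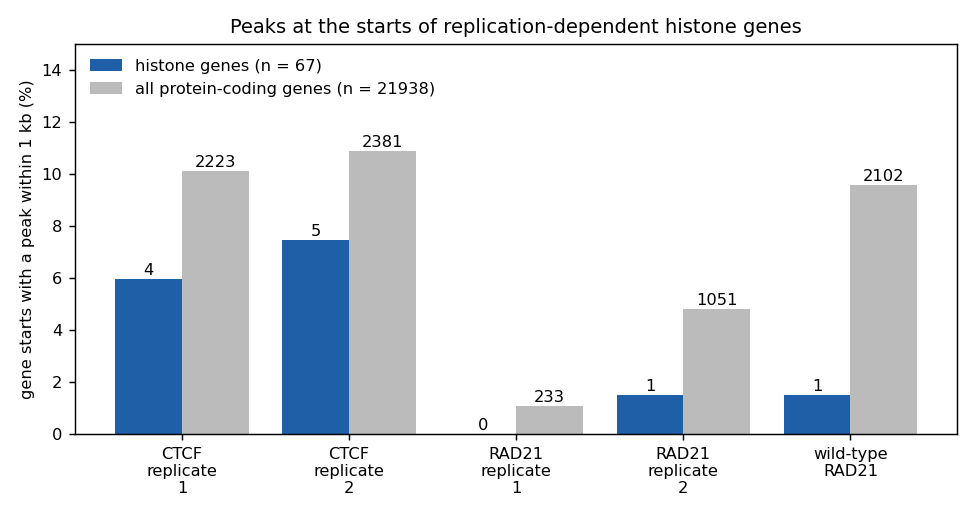
Percent of gene starts with a peak within 1 kb (y axis) in each peak list (x axis), for the 67 histone genes (blue) and all 21938 protein-coding genes (grey), with the number of genes above each bar. The blue bar is the lower of the pair in every list, with 0 to 5 histone genes per list.

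Where CTCF was found, it was mostly at the edge of the window. Among all starts with a CTCF peak, the median distance from start to summit was 279 bp in replicate 1 and 272 bp in replicate 2. Among the members it was 891 bp and 889 bp. With a window of 500 bp, 1 member is left, Hist2h4, beside 9.11% of all starts. With a window of 2000 bp there are 9, since Hist1h2bl, Hist1h2ai, Hist1h2ag and Hist1h1t are added, beside 16.2% of all starts.

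By class, CTCF was within 1000 bp of 0 of 6 H1 genes, which encode linker histones, and of 0 of 18 H2A genes. It was at 1 of 18 H2B genes, 1 of 12 H3 genes and 3 of 13 H4 genes. These counts are over either replicate, beside 2634 of 21938 starts in all. With so few genes per class, they are not read as a difference between classes, and no test was run. The H2A and H2B proteins form the dimers of the nucleosome and the H3 and H4 proteins its tetramer. In the annotation, 12 of the H2A and 13 of the H2B members had a divergent histone partner whose start lay within 1000 bp on the other strand, beside 0 of 13 H4, 1 of 12 H3 and 0 of 6 H1 members. Between 175 and 659 bases separated the 13 divergent pairs, and no peak of any mm10 list lay within 1000 bp of these 26 starts other than the replicate 2 CTCF peak past Hist1h2bj.

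Hist1h4j (ENSMUSG00000067455.5, chr13:21735064-21735837, plus strand) encodes H4 and was the only member with both proteins within 1000 bp in the mm10 lists. Its CTCF peak lay 878 bp upstream by summit in replicate 1 (fold 6.09, rank 14145 of 23829) and 793 bp upstream in replicate 2 (fold 6.67, rank 16808 of 26264). RAD21 lay on it in replicate 2 with a fold of 6.92, rank 8220 of 14787. Wild-type RAD21 had a fold of 3.40 there, rank 14819 of 20874, and RAD21 replicate 1 had no peak. All of these folds were below the median of their lists. The motif, printed above, scored at the 97.5th percentile of the CTCF peaks from which the model was learned, and its centre lies 778 bp upstream of the start in intergenic sequence.

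Hist1h4c (ENSMUSG00000060678.5, chr13:23697635-23698454, minus strand) had the highest CTCF folds among the peaks within 1000 bp of a member start, and no RAD21 in any list. The fold was 9.29 in replicate 1, rank 2411 of 23829, and 13.5 in replicate 2, rank 1129 of 26264. The peaks overlap the 3′ end of the gene's single exon, and the motif match at 23697559 to 23697577 lies just past that end, 886 bp downstream of the start. Its score was at the 75.6th percentile.

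Hist1h3e (ENSMUSG00000069273.2, chr13:23561534-23562369, minus strand), an H3 gene, had CTCF 904 bp upstream in replicate 1 (fold 6.67, rank 11225) and 923 bp upstream in replicate 2 (fold 6.26, rank 18188), with no RAD21 and no motif match within 50 bp of the summits. Hist2h4 (ENSMUSG00000091405.2, chr3:96261682-96263311, minus strand) had a weak CTCF peak 311 bp upstream in replicate 1 (fold 4.09, rank 23174 of 23829) and one 157 bp upstream in replicate 2 (fold 6.55, rank 17229). The motif in its promoter is centred 168 bp before the start and scored at the 40.2th percentile, and no RAD21 peak covered it. Hist1h2bj (ENSMUSG00000069300.3, chr13:22043214-22043676, plus strand), an H2B gene, had a CTCF peak 1057 bp downstream of its start in replicate 2 with a fold of 8.22, rank 11104, which lies past the end of the gene. In replicate 1 the peak there had a fold of 4.07, rank 23228, and stayed outside the window.

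A CTCF motif as strong as the median of the peaks used for the model was present within 1000 bp of 2 of 67 member starts, Hist1h4j and Hist1h4c, beside 3.50% of all starts (768 of 21938). Both of these members had CTCF in both replicates. The other members with CTCF had a weaker match or none.

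Copies among the members limit what 50-base reads can show. Of the 50-base words within 1000 bp of a start, the median member had 80.7% that occur once in mm10, with 0% at the lowest and 100% at the highest, while the median of all starts was 100%. Under 50% unique words were found at 10 of 67 members, which is 14.9%, beside 5.53% of all starts. At 4 members, Hist1h2bq, Hist1h2ao, Hist1h2ap and Hist1h2br, no word was unique. The medians were 100% for H1, 70.0% for H2A, 70.5% for H2B, 77.7% for H3 and 90.0% for H4. Among the 57 members with at least 50% unique words, CTCF was still at 5 and RAD21 at 1, beside 12.6% and 5.19% of all such starts, so the members left out held none of the counted peaks.

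The CTCF sites were also counted over whole clusters. The 4 clusters span 790 kb and hold 13 CTCF sites, which is 16.5 sites per Mb beside 11.5 per Mb over the autosomes. These counts depend on joining starts up to 500 kb apart: with 100 kb, the then 6 clusters hold 8 CTCF sites and 4 RAD21 sites of the transgenic limbs, in place of 13 and 17. Of the 13 sites, 12 were in both CTCF replicates and 4 were within 1000 bp of a member start. A motif match at a summit of either replicate was found in 11. The same shares over all merged CTCF sites are not given here. The 50.1% and 64.4% given below are for the peaks of a single replicate and are not a like measure. RAD21 covered 2 of the 13 in replicate 1 (15.4%, beside 13.5% of all CTCF sites), 8 in replicate 2 (61.5%, beside 46.7%) and 8 by wild-type RAD21 (61.5%, beside 58.7%). The median member start was 12817 bp from its nearest CTCF site, and the median of all starts was 16745 bp.

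In the first Hist1 block, the histone genes form a group at each end, with a stretch of tRNA genes between them. That stretch holds 2 CTCF sites far from any member. One at chr13:21928589-21928920 ranked 543 of 23829 and 2871 of 26264 by CTCF fold in replicates 1 and 2 and had no RAD21 in any list. The other at chr13:21974028-21974587 had CTCF folds of 10.8 and 11.7 and carried RAD21 with a fold of 5.32 in replicate 2 and 5.51 in wild type. A site at chr13:22028660-22029052 had CTCF folds of 6.90 and 8.05, with RAD21 at 6.40 in replicate 2 and 6.33 in wild type. With the Hist1h4j site, these were the 4 CTCF sites inside the block.

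**Figure D2:**
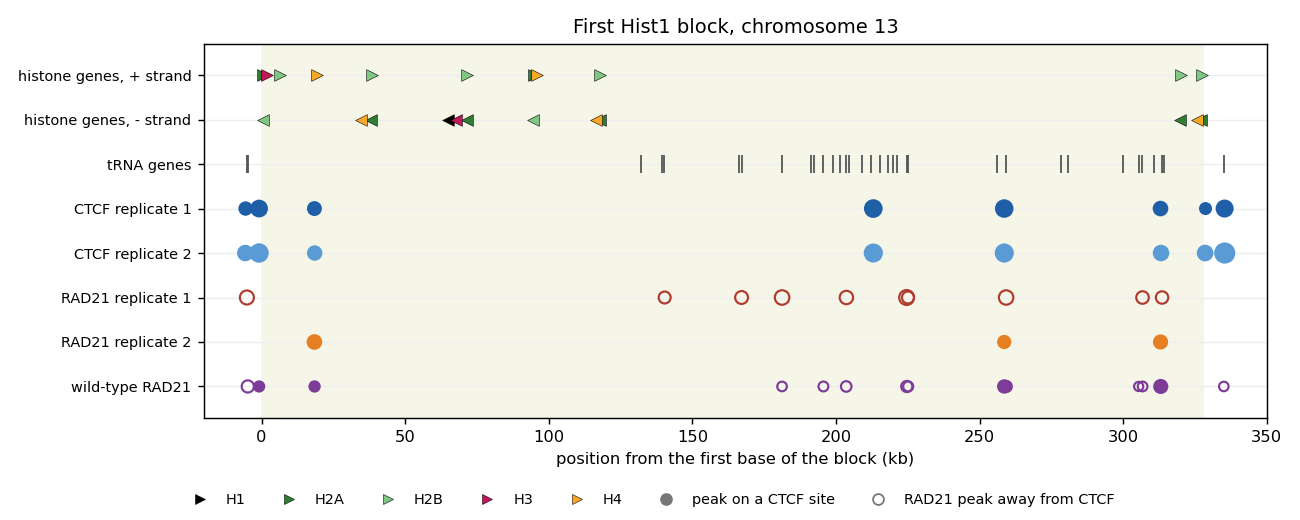
Map of the first Hist1 block: x axis, kb from its first base; rows, histone genes by strand (triangles coloured by class), tRNA genes (ticks) and peak summits of each list, with marker area rising with fold. Filled circles are peaks on a CTCF site and open circles are RAD21 peaks away from CTCF. The shaded span is the block. Most open circles of RAD21 replicate 1 and of wild-type RAD21 lie in the tRNA gene stretch between the histone gene groups. Both lists also have an open circle left of the block, the wild-type list has another to its right, and replicate 2 has none.

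CTCF also lay just beyond both ends of this block. On the left, 0.633 kb from the end of Hist1h2bl, was a site with CTCF folds of 9.76 (rank 1695) and 12.2 (rank 2250), a motif at the 78.0th percentile and a weak wild-type RAD21 peak (fold 3.38, rank 15043). On the right, 0.488 kb past Hist1h2bj, was the site described above, low in replicate 1 (rank 23228 of 23829) and above the list median in replicate 2, and 7268 bp out was a stronger one with CTCF folds of 10.1 and 15.0 and no RAD21. The nearest CTCF site with RAD21 of the transgenic limbs lay 388 kb away on the left and 1358 kb away on the right, the latter beside the second block.

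In the second Hist1 block, 8 CTCF sites lay among 31 members, and 5 of them carried RAD21 in both replicate 2 and the wild-type list. The strongest by CTCF, chr13:23597938-23598441, lies in an intron of the Hist1h2be gene record, which starts far upstream next to Hist1h1e. It ranked 354 of 23829 and 781 of 26264 by CTCF fold and had RAD21 in all 3 lists, at 5.68, 7.38 and 6.67 in replicate 1, replicate 2 and wild type. A second site with RAD21 in all lists, chr13:23792559-23792874, had CTCF folds of 6.74 and 7.90, RAD21 folds of 5.56, 9.32 and 7.62, and a motif at the 86.8th percentile. It lies past Hist1h1a, the last member before the distant pair Hist1h2ba and Hist1h2aa, which encode testis forms of H2B and H2A. The site at chr13:23832960-23833489, between the same members, had CTCF folds of 6.85 and 11.2 and RAD21 folds of 6.96 in replicate 2 and 6.57 in wild type.

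**Figure D3:**
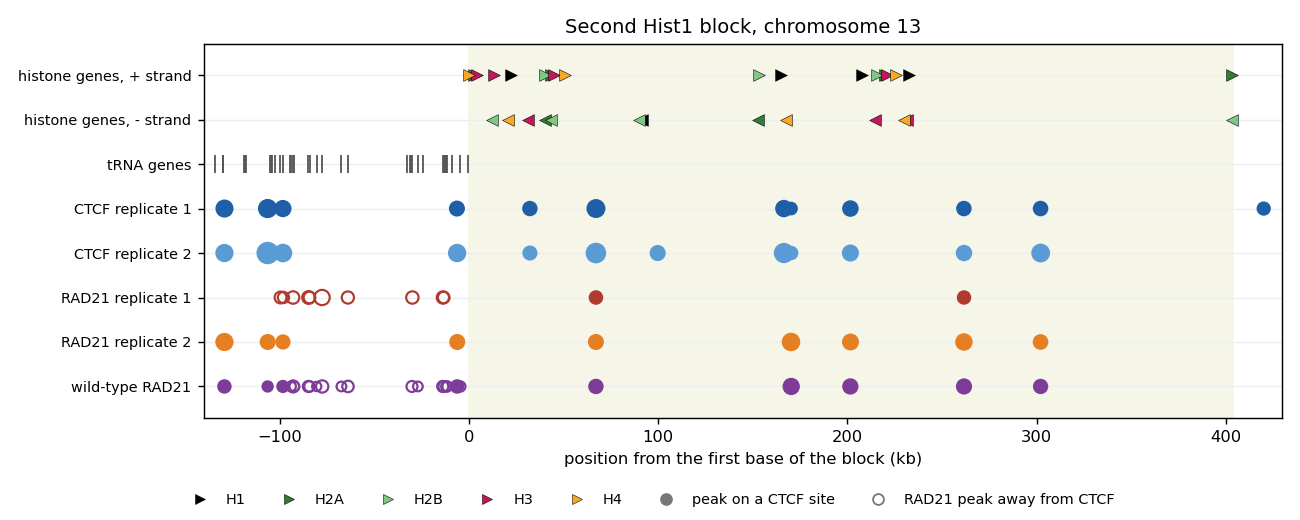
Map of the second Hist1 block, most of its left flank and the near part of its right flank, drawn in the same way: x axis, kb from the first base of the block. No open RAD21 circle lies inside the block, and those drawn lie to the left of the block among the tRNA genes. A wild-type RAD21 peak away from CTCF in Scgn, 56.1 kb to the right of the block (fold 2.75), lies beyond the drawn span.

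Near Hist1h4c, CTCF and RAD21 had different ranks at neighbouring sites. The peak at the end of Hist1h4c had CTCF at rank 2411 and 1129 with no RAD21. The site at chr13:23701230-23701496, less than 4 kb away, had CTCF at 4.71 (rank 21243 of 23829) and 5.55 (rank 21714 of 26264). There RAD21 reached 10.8 in replicate 2, rank 1850 of 14787, and 9.14 in wild type, rank 1339 of 20874. By rank it was the strongest RAD21 site of the cluster in both lists and the weakest CTCF site of the block in both replicates that called it. The site near Hist1h1c at chr13:23732544-23732850 ranked 5421 and 9459 by CTCF fold in replicates 1 and 2. Its RAD21 peak ranked 4803 of 14787 in replicate 2 and 3134 of 20874 in wild type. The remaining site, chr13:23630729-23630938, was called in CTCF replicate 2 alone (fold 7.51) and had no RAD21.

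To the left of the second block, 6.09 kb from Hist1h4h, a site had CTCF folds of 7.42 and 10.6 and RAD21 folds of 7.52 in replicate 2 and 5.60 in wild type. To the right, the nearest CTCF peak, 16.3 kb out, was in replicate 1 alone with a fold of 5.36. The nearest one with RAD21 lay 92.7 kb out in an intron of Carmil1, with CTCF at 5.66 and 5.64 and RAD21 at 6.51 and 5.13. The motif of the left site is on the minus strand and that of the right site on the plus strand. Inside the block, 4 motifs are on the plus strand and 3 on the minus strand, in alternation from the first to the sixth.

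The Hist2 cluster had a single CTCF site, that of Hist2h4, and no RAD21 peak in any list. On its left, the nearest CTCF site lay 10.3 kb out in Bola1 with folds of 4.96 and 5.64 and no RAD21, and the nearest with RAD21 lay 71.5 kb out in Otud7b, with CTCF folds of 7.85 and 7.25. On its right, a weak CTCF peak 7.40 kb out was in replicate 2 alone (fold 4.31, rank 25725 of 26264). A broad site 7.80 kb out had CTCF folds of 8.38 and 9.69, RAD21 of 4.79 in replicate 2 and 3.92 in wild type, and a motif at the 79.5th percentile. A RAD21 peak that overlapped no CTCF peak lay at chr3:96284532-96284829 in Fcgr1, at rank 10647 of 14787 in replicate 2. A wild-type RAD21 peak with a fold of 6.76 covered the same place. Near its summit was a CTCF motif match on the plus strand, at the 29.9th percentile. RAD21 replicate 1 had no peak within 150 kb of this cluster.

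The Hist3 cluster and Hist4h4 had no peak of any list inside. At Hist3, the nearest CTCF site was 10.7 kb to the right, in replicate 2 alone (fold 5.21), and 20.6 kb to the left, with folds of 7.33 and 13.5. The nearest CTCF site with RAD21 of the transgenic limbs lay 312 kb away on the left and 341 kb on the right. A weak wild-type RAD21 peak (fold 2.52, rank 19519 of 20874) lay nearer, 58.4 kb to the right. It fell on a CTCF site with folds of 5.78 and 4.17. Hist4h4 lay between CTCF sites at 58.4 kb on the left and 56.7 kb on the right. Both carried RAD21, at 6.03 and 7.21 in replicate 2 and at 10.4 and 7.08 in wild type. The left one ranked 380 of 20874 in the wild-type list.

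**Figure D4:**
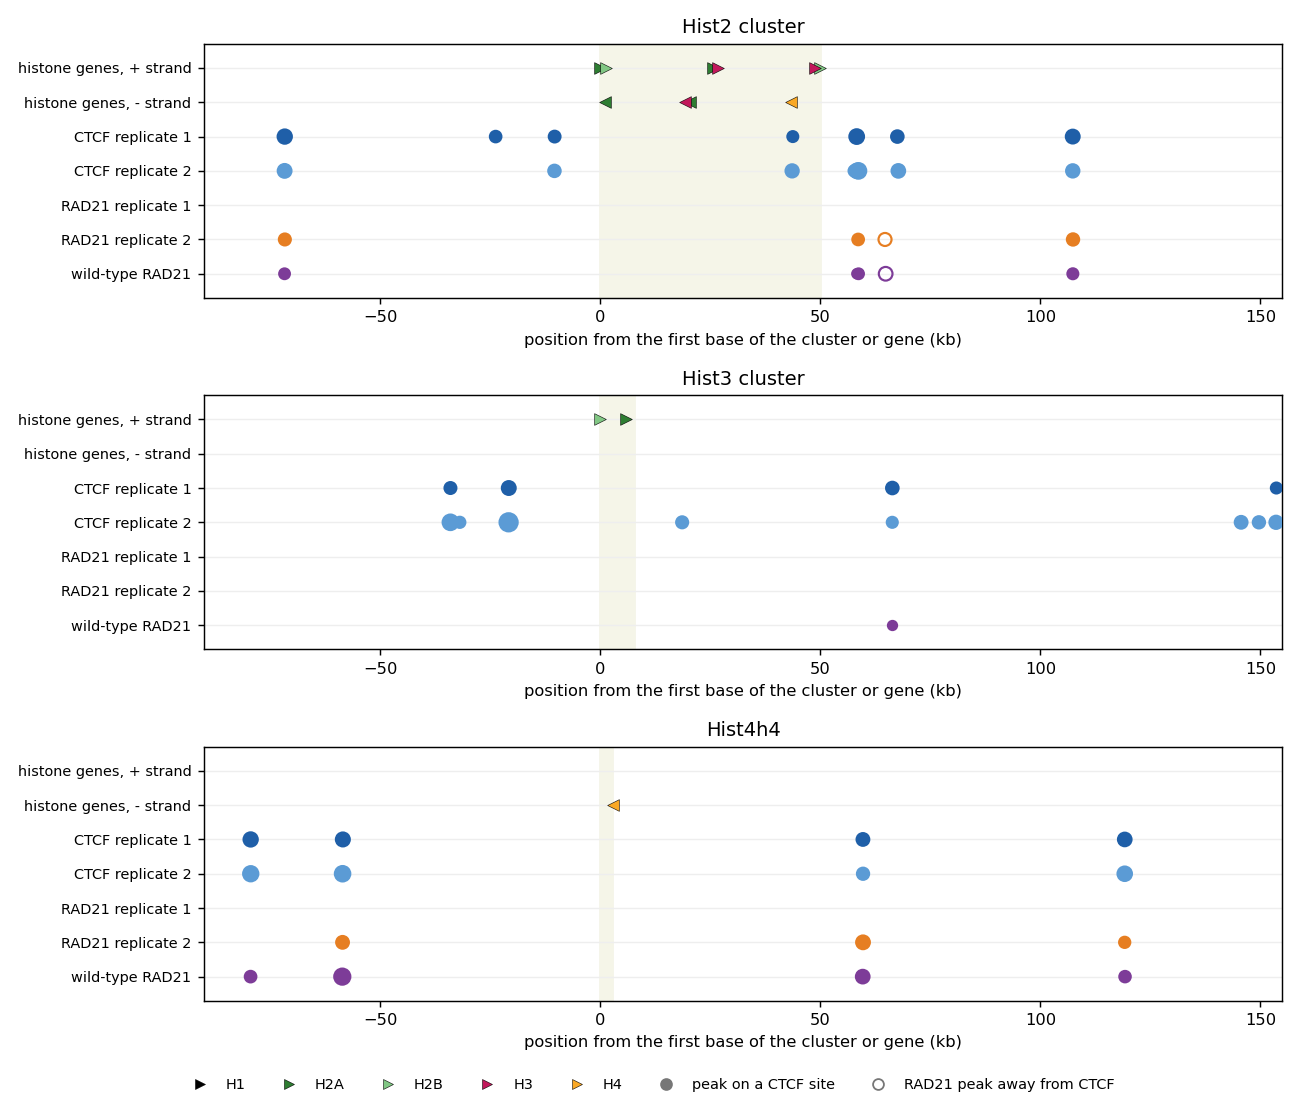
Maps of the Hist2 cluster, the Hist3 cluster and Hist4h4 with parts of their flanks, drawn in the same way: x axis, kb from the first base of the cluster or gene. RAD21 replicate 1 has no circle in the 3 maps, and the sole circles inside a shaded span are the CTCF peaks at Hist2h4.

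RAD21 sites were denser in the clusters than over the autosomes, and most of them lay in the first Hist1 block. The 4 clusters held 17 RAD21 sites of the transgenic limbs, 21.5 per Mb beside 5.95, and 16 wild-type peaks, 20.3 per Mb beside 8.27. RAD21 replicate 1 gave 11 of the sites and replicate 2 gave 8. Of the 11 peaks of replicate 1 inside the clusters, 9 lay away from CTCF (81.8%, beside 4.44% of that whole list). Of the 16 wild-type peaks, 8 did (50.0%, beside 19.1%). In replicate 2 it was 0 of 8, beside 8.89% of its whole list. All of the peaks away from CTCF lay in the first Hist1 block.

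Most of these peaks lie on tRNA genes, which was looked for after the peaks had been seen. RefSeq places 403 tRNA genes on the nuclear chromosomes, 31 of them inside the first block and 70 inside or within 150 kb of the 2 Hist1 blocks. RAD21 replicate 1 had 20 peaks away from CTCF in this stretch and 18 of them overlapped a tRNA gene, beside 89 of 181 such peaks over all chromosomes (49.2%). The wild-type list had 27 and 26 overlapped one, beside 125 of 3968 (3.15%). The 2 peaks of replicate 1 that overlapped none, at chr13:21919304-21919507 and chr13:23501075-23501222, lie next to n-TSaga5 and n-TSaga7, serine tRNA genes that the wild-type list covers. Without peaks on tRNA genes, the clusters hold 9 RAD21 sites of the transgenic limbs, 11.4 per Mb beside 5.91.

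Of the 70 tRNA genes near the Hist1 blocks, 19 were overlapped in RAD21 replicate 1, beside 26.6% of all tRNA genes, 29 in the wild-type list, beside 38.7%, and 0 in RAD21 replicate 2, beside 0.496%. CTCF overlapped 0 of the 70 in both replicates, beside 1.99% and 2.23%. The shares at the Hist1 blocks were 27.1% in replicate 1 and 41.4% in wild type, beside 26.4% and 38.1% of the 333 tRNA genes elsewhere. The share of unique words was not computed over the tRNA genes, and some are copies, such as n-TMcat7 and n-TMcat8 with identical bases. The mm10 lists dropped reads of duplicated sequence, so a tRNA gene without a peak may still be bound. With only peaks of -log10 q 5 or more, replicate 1 overlapped 9 of the 70, beside 19.1% of all tRNA genes. RAD21 peaks on tRNA genes were thus found over the genome in these 2 lists. Both lists shared 16 of the tRNA genes near the blocks, which is 84.2% of those in replicate 1 and 55.2% of those in the wild-type list. Elsewhere they shared 88, which is 100% and 69.3%. RAD21 replicate 2 has more peaks than replicate 1 in all and none on these tRNA genes. Library size and background per replicate are unknown, and their part in this was not tested.

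**Figure D5:**
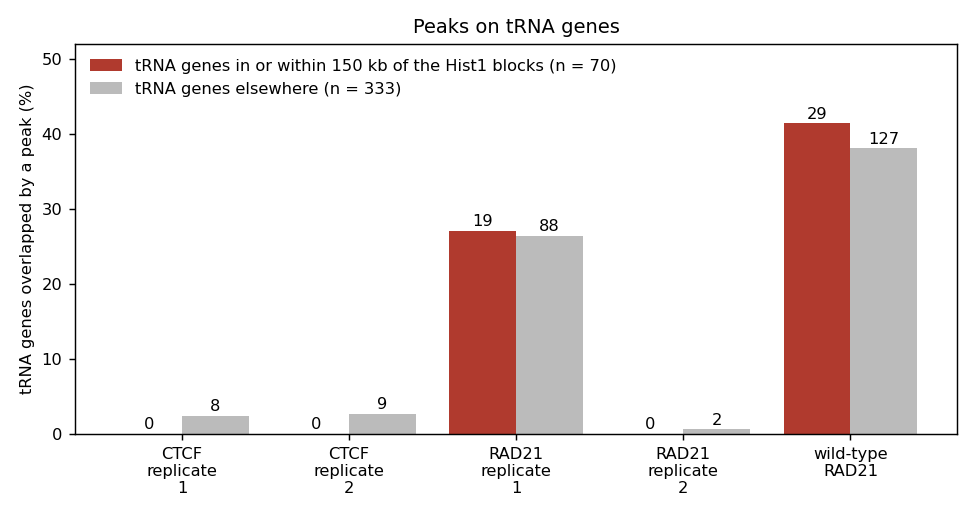
Percent of tRNA genes overlapped by a peak (y axis) in each peak list (x axis), for the 70 tRNA genes inside or within 150 kb of the Hist1 blocks (red) and the 333 elsewhere (grey), with the number of genes above each bar. Red and grey are near each other in RAD21 replicate 1 and in wild-type RAD21, and replicate 2 has 0 and 2 genes.

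The folds of these tRNA gene peaks away from CTCF were mostly below the median of their lists. The 18 peaks of replicate 1 ranged from 4.12 to 8.83 with a median of 5.34, beside a median of 6.13 over that list. The 26 wild-type peaks on tRNA genes ranged from 2.28 to 5.19 with a median of 3.27, beside 4.57. The highest of them in both was at n-TLcag10, a leucine tRNA gene in the left flank of the second block, with 8.83 in replicate 1 (rank 217 of 4102) and 5.19 in wild type (rank 8622 of 20874). Next in replicate 1 was n-TDgtc12, an aspartate tRNA gene of the first block, with 8.33 and 4.01. After it came n-TItat14 for isoleucine, with 7.83 and 2.61, and n-TMcat8 for methionine, with 7.67 and 3.99, both in the first block. A pair of tRNA genes left of Hist1h2bl, n-TGgcc7 for glycine and n-TMcat7 for methionine, shared 1 peak with 7.20 and 5.05. Of these genes, n-TLcag10, n-TDgtc12 and the pair are printed from mm10 on their own strand. The B box word GGTTCGA is in capitals where it is present, and n-TItat14 and n-TMcat8, not printed, lack it. The B box is the internal promoter element that TFIIIC binds.
n-TLcag10, chr13:23453432-23453514, minus strand: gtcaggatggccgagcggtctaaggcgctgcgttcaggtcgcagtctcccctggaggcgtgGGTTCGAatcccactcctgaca
n-TDgtc12, chr13:21940319-21940390, minus strand: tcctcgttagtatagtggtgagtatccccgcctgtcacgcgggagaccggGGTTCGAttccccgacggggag
n-TGgcc7, chr13:21710580-21710650, plus strand: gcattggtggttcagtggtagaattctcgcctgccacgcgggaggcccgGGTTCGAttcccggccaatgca
n-TMcat7, chr13:21710994-21711065, plus strand: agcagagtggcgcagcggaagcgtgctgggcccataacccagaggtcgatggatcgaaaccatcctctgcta
The word was in 21 of the 32 tRNA genes near the blocks with a RAD21 peak in replicate 1 or the wild-type list (65.6%), in 24 of the 38 without one (63.2%) and in 59.6% of all 403. The histone starts stayed clear of these peaks. The tRNA gene with RAD21 nearest to a start was n-TRtcg1, whose wild-type peak (fold 3.14) lies 4401 bp from the start of Hist1h4h.

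The promoters of the members share words that are less common elsewhere. RefSeq promoters of GRCm38.p6, from 250 bases before to 50 after the start, were found for 61 of the 67 members, with 62 promoters in all. On either strand, CCAAT was in 53 of the 62, beside 38.2% of 21262 protein-coding promoters, and TATAAA was in 35, beside 12.6%. The octamer ATTTGCAT, known from H2B promoters, was in 14, beside 1.66%. CCAAT was in all 6 H1, 17 H2A, 17 H2B and 10 H3 promoters and in 3 of the 12 H4 promoters. The octamer was in 7 H2A and 7 H2B promoters and in 0 of the H1, H3 and H4 promoters. A shared region between divergent partners counts for both of its genes. These are matches of letters and were not set against binding.

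Genes that make or handle histones were counted in the same way, beside the shares of all starts given above. Of 37 genes measured for histone mRNA synthesis and processing, CTCF was at 5 in each replicate (13.5%). RAD21 was at 1, 3 and 3 in replicate 1, replicate 2 and wild type. The highest CTCF folds of replicate 2 were at Cpsf1, a subunit of the cleavage and polyadenylation factor (18.2, rank 45 of 26264), and Lsm11, a subunit of the U7 snRNP that matures histone mRNA (17.3, rank 81), followed by Pou2f1, which encodes the octamer-binding factor Oct-1 (8.34, rank 10784). Lsm11 carried RAD21 in all 3 lists. Of 25 histone chaperone genes, CTCF was at 4 in replicate 1 and 7 in replicate 2, the highest in replicate 2 being Hjurp (12.6), Asf1b (11.7) and Cabin1 (9.80). RAD21 was at 0, 3 and 4 of the 25 in replicate 1, replicate 2 and wild type. Of 17 replication-independent histone genes, CTCF was at 1 in replicate 1 and 2 in replicate 2, H1fx with a fold of 6.83 and H2afx with 5.32, and no RAD21 list had a peak. None of these genes had RAD21 away from CTCF in any list. The 10 other protein-coding genes that start inside the clusters, among them Hfe, Zfp184 and Prss16, had 0 peaks within 1000 bp in all 5 lists. Of the 51 non-histone genes inside or within 150 kb of the clusters or Hist4h4, CTCF was at 1 in replicate 1 (1.96%) and 2 in replicate 2 (3.92%). RAD21 was at 0, 1 and 2 of the 51 in replicate 1, replicate 2 and wild type. Low shares with CTCF were thus not particular to the histone genes at these loci.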

How the data were processed

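Per the deposited files and the methods of the study, the authors mapped the reads (50 bp in ChIPmentation) to mm10, or to a custom genome with the TgN(38-40) insertion, and called peaks per replicate with MACS2. MACS2 2.1.1.20160309, Bowtie2 2.3.4.1 and cutadapt 1.16 appear among the tools in the submitters' processing notes. Deposited values per peak are the fold enrichment at its summit, a ratio by the authors, and their q-value as -log10. All q-values are under 0.05, and p-values were not used. Reads of duplicated sequence were dropped for mm10, and kept and placed at random for the custom genome. All 9 deposited lists were read. The control of MACS2 and the read numbers are not given in the sources used here, and intervals from depth could not be made.

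The members and gene lists were chosen with earlier results of these data known. Windows, overlaps of at least 1 bp and clusters were computed in Python 3.11.15 with pandas 2.3.3, after a check on simulated data. No test was run, because genes and peaks are not replicates. Replicates follow the numbers of the peak lists. CTCF sites are peaks of both replicates merged where they overlap. RAD21 away from CTCF overlaps no CTCF peak of either replicate. This holds for the wild-type RAD21 list too, since no wild-type CTCF list was among those read. The 19-base CTCF model came from 2000 replicate 2 peaks on autosomes without members and was searched within 50 bp of summits, with a score exceeded by 5% of sequences 500 bp away. By this score, 50.1% and 64.4% of all peaks of CTCF replicates 1 and 2 hold it. Named are every member with a peak, every CTCF site inside a cluster, the nearest flanking CTCF sites with and without RAD21, the tRNA genes with the highest RAD21 folds and, of the other lists, the 3 genes with the highest CTCF fold in replicate 2. The flanks of 150 kb, the tRNA genes and the word GGTTCGA were chosen after seeing the data. Sequences are from GRCm38.p6 and RefSeq, genes from GENCODE M21.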

Additional observations from a re-analysis of the deposited data

Results flagged for a closer look

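The lists mapped to the custom genome, which no comparison above uses, hold 4 sites inside the clusters that overlap no peak of the mm10 lists. They were found after seeing the data. The site at chr13:21803056-21803414 lies 6783 bp from the start of Hist1h2bq and had CTCF folds of 6.69 and 6.13 in replicates 1 and 2 and a RAD21 fold of 9.99 in replicate 2. Its counterpart at chr13:21840528-21840939 lies 6785 bp from the start of Hist1h2br, with CTCF folds of 6.82 and 8.40 and a RAD21 fold of 8.83 in replicate 2. The motif match is on the minus strand in the first and on the plus strand in the second. No 50-base word of either is unique in the reference, and the members nearest to them are those with 0% unique words, and the custom-genome lists placed reads of such copies at random. Signal from 1 copy and from both cannot be told apart. The other sites were weak and in CTCF replicate 1 alone: chr3:96239410-96239533 near Hist2h3c2, also with 0% unique words, had a fold of 4.09, and chr13:22030546-22030669 near Hist1h2ah, with 100% unique words, had a fold of 3.93.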

How the results depend on the processing

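Of 61 alternative counts, 44 stayed within 1.5 times the reported count. The 44 include every alternative in which members with RAD21 away from CTCF stayed at 0, where a ratio has no meaning. With only peaks of -log10 q 10 or more, members with CTCF went from 5 to 2, members with RAD21 of the transgenic limbs from 1 to 0, CTCF sites in the clusters from 13 to 8 and RAD21 sites from 17 to 4. Wild-type RAD21 away from CTCF then went from 0 to 1 member, because the CTCF peaks at Hist1h4j fell below that limit. Members with CTCF were 1 with a 500 bp window and 9 with 2000 bp. Members with RAD21 of the transgenic limbs were 0 with 500 bp. Members with wild-type RAD21 went from 1 to 0 with 500 bp and to 3 with 2000 bp. With starts joined over 100 kb at most, which makes 6 clusters, CTCF sites were 8 and RAD21 sites 4. RAD21 sites were 11 with only peaks of -log10 q 5 or more, and 9 without peaks on tRNA genes, an alternative added after seeing the data. Without 1 replicate, RAD21 sites in the clusters ranged from 8 (without RAD21 replicate 1) to 11 (without RAD21 replicate 2), members with RAD21 from 0 to 1, members with CTCF from 4 to 5 and CTCF sites from 12 to 13. The custom-genome lists gave 7 members with CTCF and 17 CTCF sites. Near the Hist1 blocks, tRNA genes with RAD21 replicate 1 went from 19 to 9 with only peaks of -log10 q 5 or more (beside 19.1% of all tRNA genes) and to 21 in the custom-genome list, and replicate 2 stayed at 0 in each of the alternatives run. Causes beyond the construction of these settings were not tested. No paired analysis was possible because no test was run and the lists state no pairing between antibodies. Depth is unknown, which limits every statement on a missing peak.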
